A study of Arabidopsis thaliana with 6 samples.

Results

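The histone genes of Arabidopsis thaliana were followed through a series of 6 RNA-seq libraries made from decreasing amounts of total RNA. The group holds 41 genes, chosen by locus identifier from the families H1, H2A with its variants, H2B, H3.1, H3.3, the centromeric H3 and H4, among 33602 gene models counted. All 41 genes had at least 10 read pairs in at least 1 library, a minimum that 20087 of the gene models reached. For the comparison of classes, the 26 genes of H3.1 (5 genes), H4 (8), H2A (4) and H2B (9) were taken as replication-dependent. The 12 genes of H3.3 (3), centromeric H3 (1), H2A.X (2), H2A.W (3) and H2A.Z (3) were taken as variants, and the 3 genes of the linker histone H1 were given apart.

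The pilot libraries were made from 5 ng and from 5 smaller amounts of total RNA (100, 75, 50, 25 and 10 pg), with 1 library each, so that no spread between replicates exists for any amount. The paper describes the RNA as dilutions of a single sample of whole cotyledons, microdissected from sections of Col-0 embryos at 8 days after fertilization. The labels give wild type plants without treatment and name the tissue only as seed. The cDNA was primed on poly(A) tails and amplified by PCR, and the 5 ng library was sequenced at another date than the other 5. The paper states that the 100 pg sample was sequenced at both dates to correct for this, and that only its second run was kept. In the counts used here, with 1 library of 100 pg, the date and the step from 5 ng to 100 pg cannot be told apart.

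Core histones H2A, H2B, H3 and H4 form the octamer around which DNA is wrapped, and H1 binds the linker DNA between nucleosomes. Replication-dependent genes are known to be transcribed mainly in S phase, when new DNA needs new nucleosomes, whereas variants such as H3.3 are also made and deposited outside replication. In plants, unlike in animals, the transcripts of replication-dependent histones carry poly(A) tails, so a poly(A)-primed library can hold them.

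The counted read pairs ranged from 22403342 to 51130296 per library and made up 80.3% to 95.85% of those parsed. The 5 ng library stood apart from the others. Transcripts of 9 seed storage proteins, which fill the embryo in late seed development, took 59.4% of its pairs and at most 0.00175% of those in each smaller amount, although all 6 are described as dilutions of 1 RNA. The labels do not settle whether the 5 ng library was made from other material. TMM normalization, which scales libraries so that most genes keep their level, gave the 5 ng library a factor of 0.306 and the others factors from 1.07 to 1.41. Series of 5 values over the smaller amounts run from 100 to 10 pg. Levels are TMM-normalized CPM, that is read pairs scaled to a common library size, log2 ratios are those of this level plus 1, and ratios of 100 pg to 5 ng scaled by the library total alone are given for histone genes where they differ in sign. A lower number of cells that make a transcript and less transcript per cell cannot be told apart in such libraries.

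Cis-elements in front of histone genes of plants include an octamer, CGCGGATC, which occurs in promoters of replication-dependent genes. The 250 bases before the start of 1 annotated transcript per gene, chosen by its coding length and its likeness in length to the counted model, were searched for it on both strands (GATCCGCG on the other), in the TAIR10.1 genome with the RefSeq annotation. It was present in 10 of the 41 histone genes (24.39%) against 36 of 26711 protein-coding genes (0.1348%). The matches lay in 3 of 5 H3.1 genes, 2 of 8 H4 genes, 2 of 4 H2A genes, 1 of 3 H3.3 genes, 1 of 3 H2A.W genes and 1 of 3 H1 genes, and in none of the 9 H2B genes. Other transcripts of 8 histone genes start farther upstream, and a search before the outermost start, chosen after seeing the data, also found the octamer in 10 histone genes, against 0.1385% of all. Widening the window to 500 bases left 10 histone genes with a match, against 0.2546% of all protein-coding genes. The stretches below, 5′ to 3′ on the strand of the gene and with the octamer in capitals, are shown for 3 H3.1 genes, HTA13 and HTA6, which had large ratios between the libraries, for AT5G59690 and HTA10, which led their families in the smaller amounts, and for AT4G40040 of H3.3, a gene with the opposite difference.
AT1G09200 (H3.1, chr1:2972401-2972440, minus strand): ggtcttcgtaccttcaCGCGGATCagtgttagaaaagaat
AT1G09200 (H3.1, chr1:2972335-2972369, minus strand): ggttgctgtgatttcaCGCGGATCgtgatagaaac
AT5G65360 (H3.1, chr5:26120684-26120723, minus strand): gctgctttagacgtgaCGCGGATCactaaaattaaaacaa
AT5G10400 (H3.1, chr5:3271054-3271093, minus strand): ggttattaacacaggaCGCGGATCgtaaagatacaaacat
AT5G59690 (H4, chr5:24051387-24051426, plus strand): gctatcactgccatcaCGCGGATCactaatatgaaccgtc
HTA10 (H2A, chr1:18926721-18926760, plus strand): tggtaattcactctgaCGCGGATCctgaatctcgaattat
HTA13 (H2A, chr3:7229306-7229345, plus strand): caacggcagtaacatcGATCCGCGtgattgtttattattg
HTA6 (H2A.W, chr5:24116313-24116352, minus strand): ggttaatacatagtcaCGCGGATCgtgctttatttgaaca
AT4G40040 (H3.3, chr4:18558939-18558978, minus strand): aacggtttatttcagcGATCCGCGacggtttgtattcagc

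The first base of the octamer lay between 10 and 219 bases before the start of the chosen transcript. The 219 bases are those of AT4G40040, where it lay 17 bases before the outermost start, and in the other 9 genes both starts gave the same distance. AT1G09200 and HTA10 each held 2 matches. A hexamer, ACGTCA, searched on both strands and known from plant histone promoters, was found in 9 of 26 replication-dependent genes (34.62%), 7 of them H2B genes, and in 7.75% of all protein-coding genes. The nonamer CATCCAACG, on either strand, was found in none of the 41 histone genes and in 0.161% of all, and the E2F-type element TTTCCCGC, on either strand, in none of them and in 0.6364% of all. None of these strings contains another, and a match describes the sequence only.

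**Figure D1:**
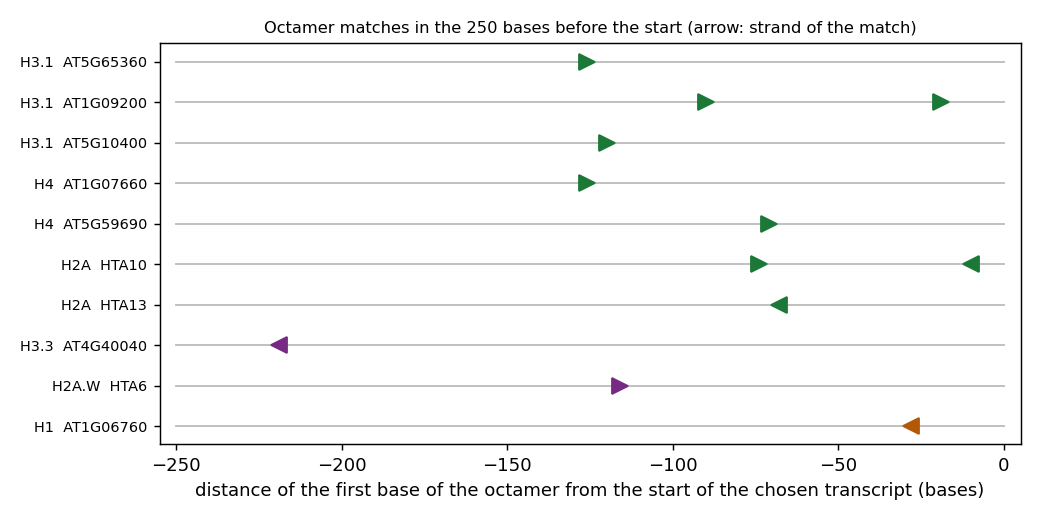
Position of the octamer in the 10 histone genes that hold it, with the distance of its first base from the start of the chosen transcript on the x axis (bases) and 1 line per gene. Arrows give the strand of the match, and positions run from 219 to 10 bases before the start.

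Most histone transcripts were lower at 5 ng than in every smaller amount, 31 of 41 in all, of which 24 belonged to the 26 replication-dependent genes, 7 to the 12 variants and 0 to the 3 linker histones. Over all genes tested, 24.4% were lower at 5 ng than in each smaller amount. Only 3 histone genes (the H2A gene HTA1 and the H3.3 genes AT4G40040 and AT5G10980) were higher at 5 ng than in each smaller amount, a pattern of 26.9% of all genes, and 7 lay in between. With the library total as the only scaling, 39 were lower and 1, HTA1, was higher. Over all 20087 genes tested, 8694 were lower and 2034 higher under this scaling.

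At 100 pg, 29 histone genes were at least 2-fold higher than at 5 ng, against 31.9% of all genes. At least 2-fold lower were 6, against 26.5% of all genes. The 29 comprised 22 replication-dependent genes and 7 variants, and the 6 comprised AT1G07660 (H4), HTA1 (H2A), HTA12 (H2A.W) and the 3 H3.3 genes. The median log2 ratio of 100 pg to 5 ng was 3.05 over replication-dependent genes, 1.80 over variants and 0.26 over linker histones, beside 0.10 over all genes tested. Scaling by the library total moved these medians to 5.13, 3.95, 2.45 and 1.70. The difference between the classes depended on where H2A.X and H2A.W were counted: with both moved to the replication-dependent genes, the medians were 2.88 for replication-dependent genes and -0.07 for variants. No test of the classes was made, since each amount has 1 library.

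**Figure D2:**
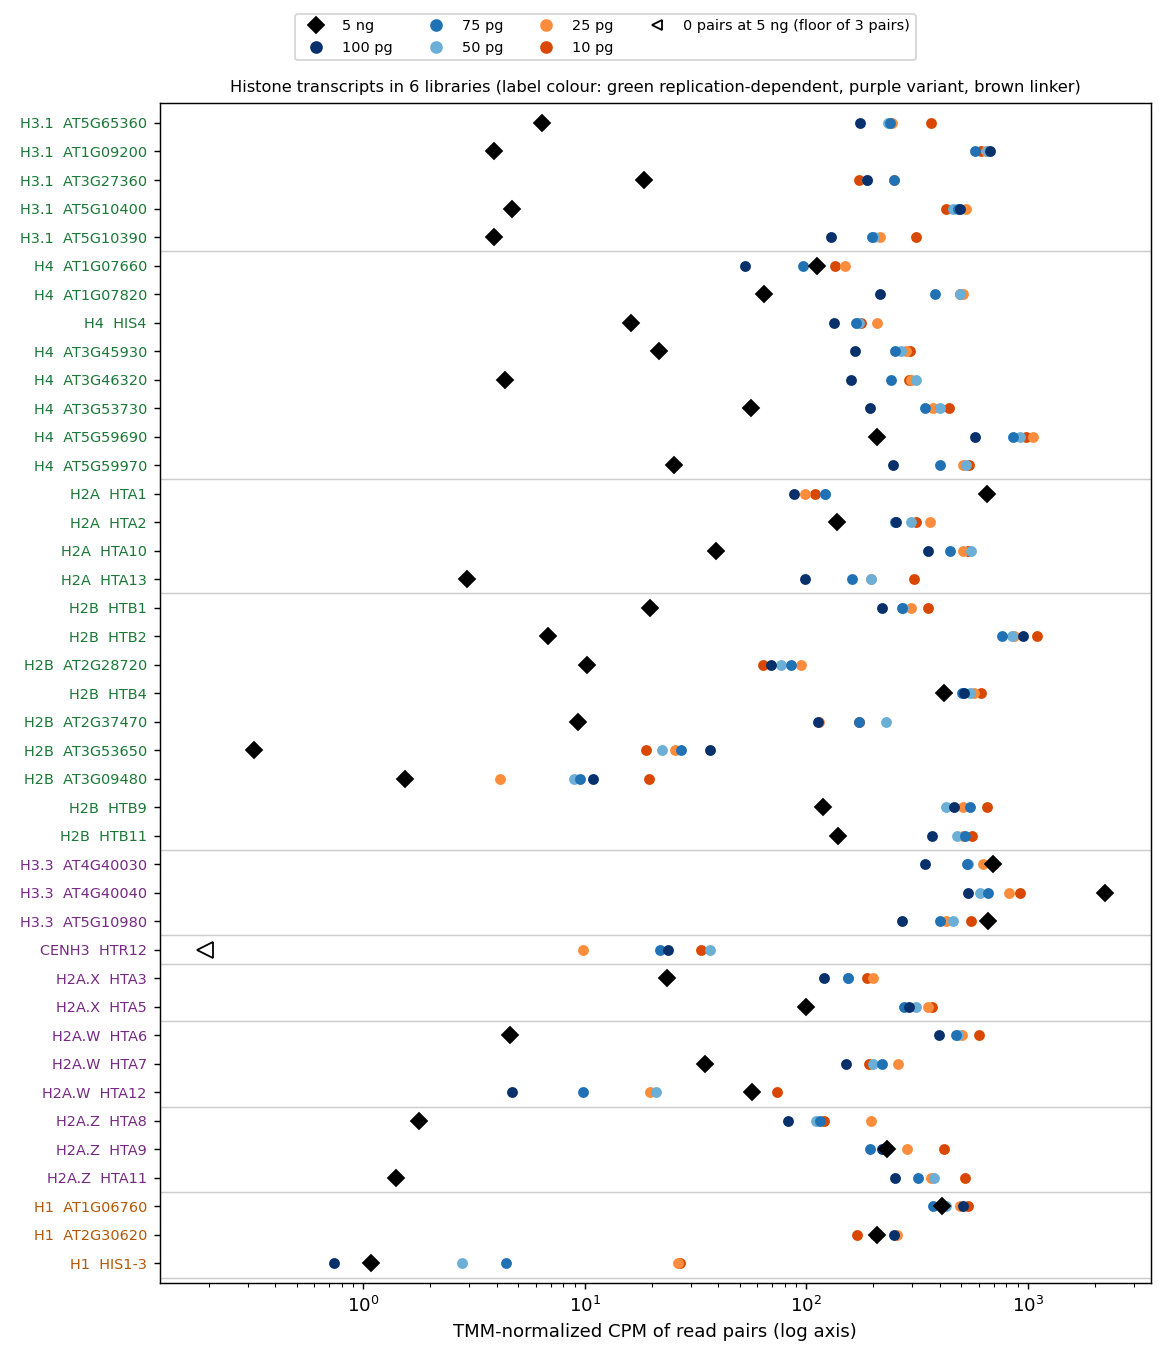
Level of each of the 41 histone genes in the 6 libraries, with TMM-normalized CPM on the x axis (log scale) and 1 row per gene, ordered by family. Diamonds mark the 5 ng library and circles the smaller amounts, and in 31 rows the diamond lies to the left of all 5 circles.

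**Figure D3:**
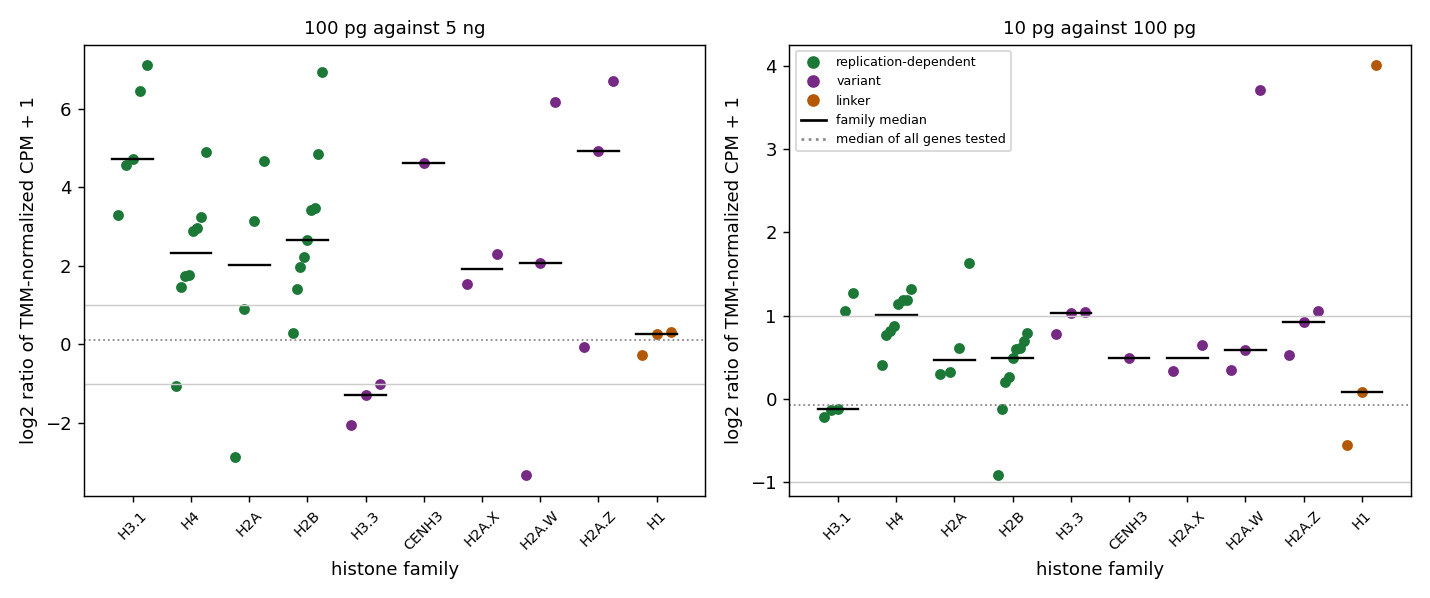
Log2 ratio of TMM-normalized CPM plus 1 for each histone gene by family, for 100 pg against 5 ng (left) and 10 pg against 100 pg (right), 1 point per gene. Family medians (black lines) reach from -1.29 in H3.3 to 4.91 in H2A.Z on the left, and dotted lines give the medians of all genes, 0.10 and -0.07.

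The 5 genes of H3.1, the H3 that the chaperone CAF-1 places on newly replicated DNA, had a summed level of 37.4 at 5 ng and 1662 to 1890 in the smaller amounts. They are intronless, and all 5 encode the same protein of 136 codons although their coding bases are only 80.29% to 89.54% identical between genes. AT1G09200 had 61 read pairs at 5 ng and 29369, 17547, 24835, 22778 and 17599 in the smaller amounts. Its levels were 3.90 at 5 ng and 675, 580, 653, 650 and 615 in the smaller amounts, which lay close together and far above the 5 ng library. The level at 100 pg was 173-fold that at 5 ng.

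AT5G10400 had 73 read pairs at 5 ng and 21569, 14670, 17418, 18376 and 12223 in the smaller amounts, a level of 4.67 against 427 to 525. AT5G65360 and AT5G10390 had 100 and 61 pairs at 5 ng, with log2 ratios of 100 pg to 5 ng of 4.57 and 4.73. In both the level was highest at 10 pg, 364 and 311, against 175 and 129 at 100 pg. AT3G27360 showed the smallest ratio of the family (3.28), with 289 pairs at 5 ng and between 4931 and 8701 in the smaller amounts. This gene overlaps AT3G27380, with which it shares 31.2% of its windows of 100 bases, and the libraries carry no strand. Pairs that fit several genes had been removed, so the count of AT3G27360 is less certain.

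The 3 genes of H3.3, the variant that replaces H3.1 in transcribed chromatin without replication, went the other way under TMM scaling. AT4G40040 had 35014 pairs at 5 ng and 23265, 20016, 23127, 28878 and 26310 in the smaller amounts. Its level was 2240 at 5 ng and 534, 661, 608, 824 and 919 in the smaller amounts, so the 5 ng library was above all others. AT5G10980 encodes the same protein as AT4G40040, which differs from H3.1 at 4 of 136 residues, and had a level of 661 at 5 ng against 270 at 100 pg and at most 552 in the smaller amounts. AT4G40030 had a level of 697 at 5 ng, which lay within the range of the smaller amounts (343 to 706). The log2 ratios of 100 pg to 5 ng of AT4G40040, AT5G10980 and AT4G40030 were -2.07, -1.29 and -1.02 under TMM scaling but 0.14, 0.92 and 1.18 under scaling by the library total.

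The share of H3.1 among the read pairs of H3.1 and H3.3 does not depend on the scaling between libraries. It was 1.03% at 5 ng (584 of 56826 pairs, exact 95% interval 0.947 to 1.11%). In the smaller amounts it was 59.2, 52.4, 52.0, 50.0 and 46.5%, with the widest interval, at 75 pg, from 52.1 to 52.7%. All 5 lay far above the 5 ng library. Without AT3G27360 the share was 0.522% for 5 ng and 44.1 to 56.2% for the smaller amounts. The intervals cover counting error only, since PCR copies of a molecule are counted as if they were independent.

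Among the smaller amounts the share of H3.1 was highest at 100 pg and lowest at 10 pg. The intervals of 75 and 50 pg overlapped, and without AT3G27360 the share was 48.6% at 75 pg and 49.1% at 50 pg. The summed level of H3.1 was 1662, 1749, 1735, 1882 and 1890, and that of H3.3 was 1147, 1590, 1603, 1880 and 2177. The level of H3.1 thus differed less among these libraries than that of H3.3.

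The replication-dependent share of all core histone pairs showed a smaller contrast. It was 34.1% at 5 ng (32831 of 96165 pairs, exact 95% interval 33.8 to 34.4%) and 72.1, 71.3, 71.9, 69.8 and 68.2% in the smaller amounts. Counted per kb of gene model it was 37.9% at 5 ng and 71.7 to 75.3% in the others. H3.3 alone made up 53.1% of all histone pairs at 5 ng and at most 14.1% in each smaller amount, and H4 made up 7.50% and 16.8 to 24.3%.

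**Figure D4:**
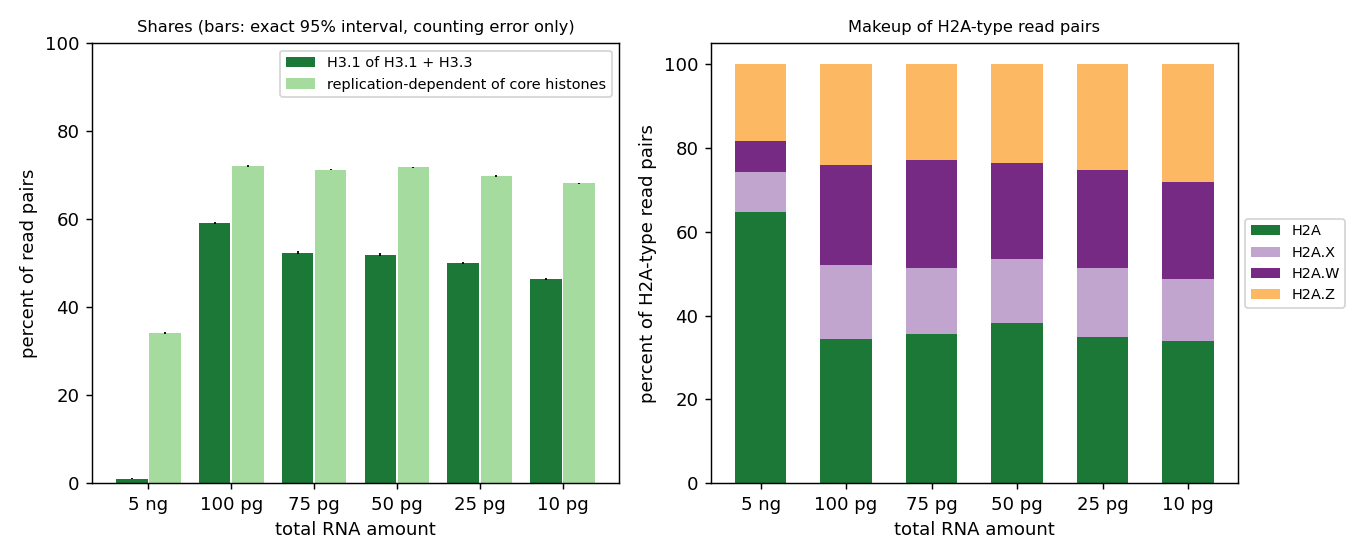
Left: percent of read pairs of H3.1 among H3.1 and H3.3 (dark bars) and of replication-dependent genes among core histones (light bars) in each library, with exact 95% intervals that cover counting error only; right: makeup of H2A-type pairs in percent. The dark bar is at 1.03% for 5 ng and between 46.5 and 59.2% in the 5 smaller amounts.

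The centromeric H3, HTR12, which marks the chromatin on which kinetochores form, was the only histone gene with 0 read pairs in a library. It had 0 pairs at 5 ng, which allows up to 0.192 normalized CPM (3 pairs), and 1032, 663, 1403, 345 and 962 in the smaller amounts. At 100 pg its level was at least 124-fold higher than this floor. Of the 14008 genes detected in all smaller amounts, 8.94% had 0 pairs at 5 ng. Its lowest level in the smaller amounts was 9.85 (25 pg) and its highest 36.9 (50 pg). HTR12 thus varied more among the smaller amounts (SD of log2 level 0.71) than the median histone gene (0.33), but less than the median of all genes tested (0.83).

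The 8 genes of H4, which pairs with H3 in the nucleosome core, encode the same protein of 103 codons, and their coding bases are 78.85 to 98.08% identical. Pairs that fit several genes had been removed, and AT3G45930 and AT3G46320 share 11.1 and 12.1% of their windows of 100 bases, so the counts of these genes are less certain. AT5G59690 led the family in every library, with 3266 pairs at 5 ng and 25080, 25924, 35074, 36753 and 27958 in the smaller amounts. Its level was 209 at 5 ng and 576 to 1049 in the others, with no overlap.

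AT3G46320 showed the largest H4 ratio, with 68 pairs at 5 ng and 6906 to 11905 in the smaller amounts, a 36.5-fold level at 100 pg. HIS4, AT3G45930, AT5G59970, AT3G53730 and AT1G07820 were 8.23-, 7.68-, 9.77-, 3.45- and 3.34-fold higher at 100 pg than at 5 ng. AT1G07660 was the exception, with a level of 111 at 5 ng, within the range of the smaller amounts (53.1 to 149). Its log2 ratio of 100 pg to 5 ng was -1.05 but 1.12 with library totals, and it shares 6.1% of its windows with AT1G07820.

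The 4 genes of canonical H2A exchanged places between the libraries. HTA1, known as RAT5 from its part in transformation by Agrobacterium, gave 78.4% of the H2A pairs at 5 ng. It had 10169 pairs there and 3812, 3664, 4597, 3450 and 3127 in the smaller amounts, a level of 651 against 87.6 to 121. The level at 5 ng was 7.43-fold that at 100 pg, and HTA1 was lower at 100 pg also with library totals. HTA10 led the family in all smaller amounts, with 42.5 to 47.5% of its pairs.

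HTA10 had 612 pairs at 5 ng and 13530 to 21122 in the others, a level of 39.2 against 353 to 555. HTA13 had 46 pairs at 5 ng and 4299, 4859, 7428, 6857 and 8804 in the smaller amounts, a 33.6-fold level at 100 pg. HTA2 differed least, with a level of 137 at 5 ng and 252 to 362 in the others. The 3 genes other than HTA1 were all lowest at 5 ng.

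H2B, the partner of H2A in the nucleosome, was represented by 9 intronless genes, all of them lowest at 5 ng. HTB2 had 107 pairs at 5 ng and 41380, 23082, 32284, 30300 and 31334 in the smaller amounts, a level of 6.85 against 763 to 1095. It was 139-fold higher at 100 pg and became the leading H2B gene. HTB4 gave 57.9% of the H2B pairs at 5 ng, with 6564 pairs, and differed by only 1.22-fold between 5 ng and 100 pg.

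HTB1, AT2G37470, AT2G28720, HTB9 and HTB11 were 11.1-, 12.1-, 6.84-, 3.93- and 2.67-fold higher at 100 pg than at 5 ng. AT3G53650 had 5 pairs at 5 ng and 1597, 822, 847, 898 and 542 in the smaller amounts, and its level was highest at 100 pg. AT3G09480, with 24 pairs at 5 ng and 145 to 560 in the others, had the lowest level per kb of gene model among the H2B genes in each smaller amount. Its level was 4.14 at 25 pg and 19.6 at 10 pg.

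The pair of H2A.X genes, whose product is phosphorylated at DNA breaks, was lowest at 5 ng. HTA5 had a level of 99.9 at 5 ng and 277 to 368 in the others, and HTA3 had 23.5 and 120 to 200. The proteins of HTA5 and HTA3 differ at 2 of 142 residues. HTA3 shares 9.69% of its windows of 100 bases with the overlapping gene AT1G54680.

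The H2A.W genes, whose products mark heterochromatin, split into different patterns. HTA6 had 72 pairs at 5 ng and 17365, 14295, 18414, 17573 and 17163 in the smaller amounts, a level of 4.61 against 399 to 600. HTA7 had a level of 34.9 at 5 ng and 150 to 260 in the others. Both were lowest at 5 ng.

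HTA12 had 885 pairs at 5 ng and 205, 298, 796, 691 and 2108 in the smaller amounts. Its level was 56.6 at 5 ng and 4.71, 9.85, 20.9, 19.7 and 73.6 in the smaller amounts. The 5 ng library thus lay between 10 pg and the other amounts, and HTA12 was 15.6-fold higher at 10 pg than at 100 pg. It gave 58.9% of the H2A.W pairs at 5 ng, where HTA6 gave 64.2 to 72.0% in the smaller amounts.

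Of the H2A.Z genes, whose product sits next to transcription start sites, a single gene gave nearly all pairs at 5 ng. HTA9 gave 98.6% of the H2A.Z pairs there, with 3610 pairs, and had a level of 231 at 5 ng and 194 to 417 in the smaller amounts. Its log2 ratio of 100 pg to 5 ng was -0.07 but 2.12 with library totals, under which its 70.6 CPM at 5 ng lay below the 262 to 447 CPM of all smaller amounts. HTA11 had 22 pairs at 5 ng and 10890, 9707, 14392, 12754 and 14893 in the smaller amounts, a 178-fold level at 100 pg. No other histone gene with pairs in both libraries had a larger fold, whereas on the log2 scale with the pseudocount HTA11 (6.70) was below AT1G09200 (7.11) and HTB2 (6.92).

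HTA8 had 28 pairs at 5 ng and 3606, 3504, 4184, 6873 and 3428 in the smaller amounts. Its level was 1.79 against 82.8 to 196. Within the read pairs of H2A and its variants, H2A.Z made up 18.2% at 5 ng and 23.0 to 28.2% in the others, and H2A.W 7.49% and 23.0 to 25.6%.

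Under TMM scaling, linker histones differed least between 5 ng and 100 pg, none of the 3 by 2-fold. With library totals their median log2 ratio of 100 pg to 5 ng was 2.45, above that of the H3.3 genes (0.92). AT1G06760 had 6400 pairs at 5 ng, a level of 409, and levels of 508, 374, 427, 495 and 539 in the smaller amounts. AT2G30620 had a level of 209 at 5 ng and 170 to 257 in the others. For both genes the 5 ng library lay within the range of the smaller amounts, but below all of them under scaling by the library total.

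HIS1-3, a linker histone variant known to be induced by drought and abscisic acid, was at low counts. It had 17 pairs at 5 ng and 32, 134, 106, 927 and 771 in the smaller amounts. Its level was 1.09, 0.74, 4.43, 2.79, 26.5 and 26.9 in the same order, which set 25 and 10 pg apart from the rest. The log2 ratio of 100 pg to 5 ng was -0.27 but 0.61 with library totals. The log2 ratio of 10 pg to 100 pg was 4.01, the largest of all histone genes.

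**Figure D5:**
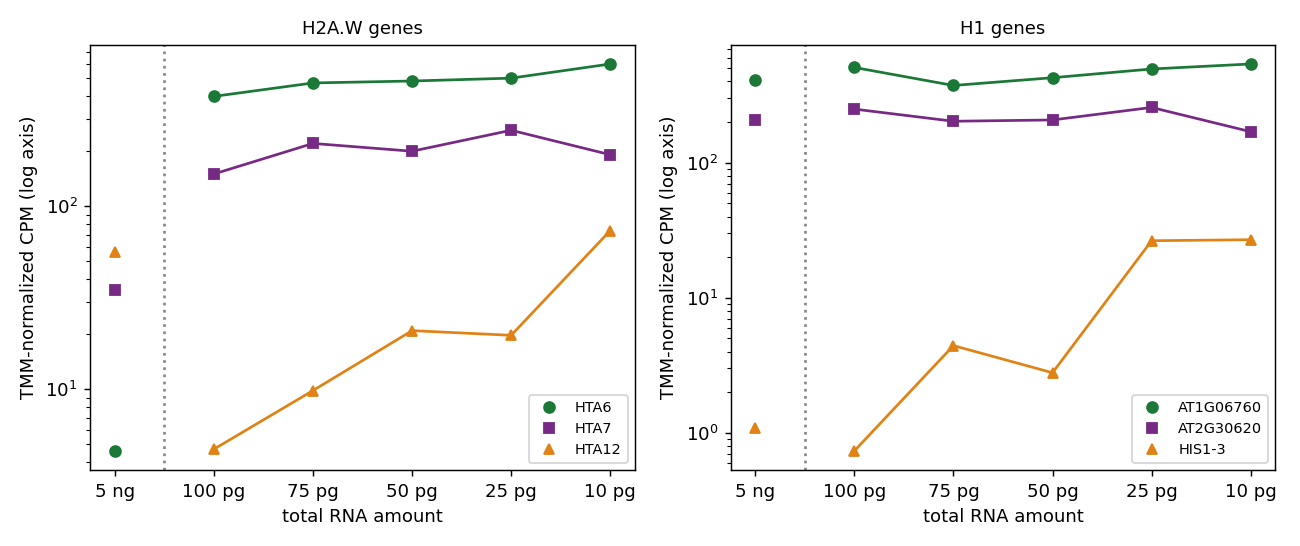
TMM-normalized CPM (log axis) of the H2A.W genes (left) and the H1 genes (right) against total RNA amount, 1 point per library, with lines joining the 5 smaller amounts. HTA12 reaches from 4.71 at 100 pg to 73.6 at 10 pg and HIS1-3 from 0.74 to 26.9, while HTA6 lies between 399 and 600 in the smaller amounts.

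Per kb of gene model, the highest levels at 100 pg were those of HTB2 (1427), AT1G09200 (1111), AT5G59690 (973) and AT5G10400 (746). These 4 genes are replication-dependent. At 5 ng the order began with AT4G40040 (2602), HTA1 (972), AT5G10980 (925) and AT4G40030 (908), of which only HTA1 is replication-dependent. The sum of all 41 genes was 2070 CPM of the library total at 5 ng and 14701 to 17521 CPM in the smaller amounts.

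Members without introns were all in replication-dependent families (H3.1, H2B and 5 of the H4 genes). All 19 were lowest at 5 ng, with a median log2 ratio of 100 pg to 5 ng of 3.28, against 12 of 22 genes with introns and a median of 1.21. The 10 genes with the octamer had a median ratio of 3.86 and the 31 without it 2.23, yet 7 of 10 and 24 of 31 were lowest at 5 ng. Neither split was tested.

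From 100 pg downwards, all 41 histone genes were detected in every library. At 10 pg, 20.7% of the 19266 genes detected at 100 pg had 0 read pairs. At least 2-fold higher at 10 pg than at 100 pg were 12 histone genes, against 18.8% of all genes, and 0 were at least 2-fold lower, against 32.6% of all. At 25 pg, 6 were at least 2-fold higher than at 100 pg, against 15.8% of all genes, and 2 (HTR12 and AT3G09480) were lower, against 25.2%.

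The 12 genes higher at 10 pg were AT5G65360 and AT5G10390 of H3.1, AT4G40030 and AT5G10980 of H3.3, AT1G07660, AT1G07820, AT3G53730 and AT5G59970 of H4, HTA13, HTA12, HTA11 and HIS1-3. With library totals only 3 were higher and 1 was lower. The shares of all genes given above, 18.8% and 32.6%, are those under TMM scaling and are no measure for these counts. The median log2 ratio of 10 pg to 100 pg was 0.61 over histone genes and -0.07 over all genes. Over the 455 genes with a mean level at or above the median of the histone genes, the median ratio was 0.71. Of these, 29.45% differed by at least 2-fold in either direction, against 29.27% of all 41 histone genes. The sets are not matched in level, since the 455 leave out the histone genes below that median and hold the others.

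The slope of the level on log2 of the RNA amount was fitted over the 5 smaller amounts with edgeR's quasi-likelihood test. No gene of 19059 passed an adjusted p of 0.05 (0% of all genes, 2631 at an unadjusted p under 0.05), and so 0 of 41 histone genes did, while DESeq2 called 2228 genes and 6 of the histone genes. The estimates of 35 histone genes were negative, that is higher levels at less RNA, and 9 of them had an unadjusted p under 0.05. Over all genes tested 7963 estimates were negative, 948 of them with an unadjusted p under 0.05. The steepest were those of HIS1-3, at -1.46 per doubling of the RNA amount (SE 0.57, adjusted p = 0.345 by edgeR), and HTA12, at -1.01 (SE 0.28, adjusted p = 0.345 by edgeR). HTA13 followed with -0.38 (SE 0.11, adjusted p = 0.345 by edgeR). AT1G09200 was at 0.02 (SE 0.08).

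Genes that place histones on DNA were compared from a list of 21 chaperones and remodelling factors. Of these, 15 were at least 2-fold higher at 100 pg than at 5 ng and 0 lower, against 31.9% and 26.5% of all genes, and the median log2 ratio was 1.60 beside 0.10 over all genes. NAP1;2 and NRP1, chaperones of H2A and H2B, had 561 and 1289 pairs at 5 ng and 7248 and 7539 at 100 pg, log2 ratios of 2.18 and 1.06. MSI1, a subunit of CAF-1, had a ratio of -0.72 but 1.44 with library totals. The other CAF-1 subunits went the other way under TMM scaling. FAS1 had 20 pairs at 5 ng and 1142 at 100 pg, and FAS2 had 0 and 412, log2 ratios of 3.58 and 3.39.

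All 13 genes of DNA replication and all 6 of mitosis were at least 2-fold higher at 100 pg than at 5 ng, against 31.9% of all genes, with medians of 5.23 and 5.55. MCM7, a subunit of the replicative helicase, had 0 pairs at 5 ng and 6287 at 100 pg. TSO2, a subunit of ribonucleotide reductase, had 23 and 6375, CDT1A, a licensing factor, 47 and 785, and RNR1, the other reductase subunit, 44 and 3032. In mitosis, CYCB1;1 and CYCB1;2, both B-type cyclins, had 0 pairs at 5 ng and 1346 and 5672 at 100 pg, and KN, a syntaxin of cytokinesis, 40 and 8588. At 10 pg CYCB1;1 had 22 pairs. The slope over the smaller amounts, by which edgeR called no gene at all, was called by DESeq2 for 2 of the 21 chaperone genes, 2 of the 13 replication genes and 0 of the 6 mitosis genes. Over all genes DESeq2 called 2228 of 19059.

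Markers of tissue moved with the 5 ng library as well. All 9 storage protein genes were higher there, with a summed CPM of 593957 of the library total against at most 17.5 in each other library, led by SESA3, CRU3 and SESA1. The 5 regulators of the embryo had a summed level of 243 at 5 ng and 276 to 519 in the others, with LEC2 at 0 pairs at 5 ng and ATML1, FUS3 and ABI3 most abundant. Of the 5, 3 were lower at 5 ng than in each smaller amount, whereas ABI3 was higher, with a level of 87.5 against 17.5 to 44.9. With library totals 4 of the 5 were lower and 0 higher, and ABI3 lay in between, with 26.8 CPM at 5 ng and 23.7 to 63.5 in the others. Of 6 endosperm genes, FWA and PHE1 were at 0 in all libraries, MEA was at 0 in all but the 5 ng library, AGL62 was at 0 in 3 libraries, and the sum of the list, mostly ZOU, was 2.43 at 5 ng and 27.2 to 122 in the others. The 5 seed coat genes summed to 148 at 5 ng, mostly TT10 with 2181 pairs, and to 1.45 to 9.71 in the others, where TT10 was at 0 and BAN was at 0 in all but the 10 pg library. TT12 and TT2 were at 0 at 5 ng and had at most 5 pairs elsewhere, and TT8 had 23 pairs at 5 ng and 155, 42, 136, 337 and 0 in the smaller amounts. The part of these differences in those of the histone genes was not tested.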

How the data were processed

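The pair counts of 6 libraries were used, grouped by the RNA amount in their labels. The authors trimmed the reads by quality and length, removed ribosomal sequences with SortMeRNA, mapped what remained against representative TAIR10 gene models by Bowtie2 (local alignment) and deposited raw counts of read pairs of which both reads map unambiguously to 1 gene, with multi-hits removed and without strand information. TopHat2 is also named in the submitters' processing notes. The deposited count of single reads served only for an alternative. The date effect that the study removed was not repeated.

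From the counts, TMM factors and CPM were computed with edgeR 4.0.16 in R 4.3.3. Genes with at least 10 read pairs in at least 1 library were kept, and ratios used a pseudocount of 1. Amounts were not tested against each other, as each has 1 library. A slope against log2 RNA amount was fitted over the 5 smaller amounts by edgeR's quasi-likelihood test with 3 residual degrees of freedom and Benjamini-Hochberg adjustment over all genes, and its p-values reflect only the scatter of single libraries about the fitted line. This fit was tested on simulated data with 200 changed genes. The slopes given to these were steeper than the estimates of all histone genes but HIS1-3 and HTA12, so the simulation does not show whether smaller slopes can be found. Alternatives used DESeq2 1.42.0. Python 3.11.15, pandas 2.3.3, NumPy 2.4.6, SciPy 1.17.1 and matplotlib 3.10.9 made the tables, sequences and plots. Shares carry exact Clopper-Pearson 95% intervals.

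Any of the 41 histone genes may be named. From each other list, the 2 genes with the highest CPM at 100 pg and the 2 highest at 5 ng are named, and for the marker lists those at 0. LEC2, FWA, PHE1 and TT2 are named as such zeros. FAS1 and FAS2 are named beside MSI1 as the other subunits of CAF-1. The members and lists were chosen with earlier results of these data known. Symbols are those of the TAIR10.1 RefSeq annotation, and loci without one are given by identifier. Gene structures and sequences come from TAIR10.1, whose transcripts can differ in length from the counted models.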

Additional observations from a re-analysis of the deposited data

How the results depend on the processing

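No paired analysis was possible because each amount has 1 library and the labels carry no replicate numbers. In each setting named here the cause of a move was not tested. With the library total as the only scaling, the histone genes at least 2-fold lower at 100 pg than at 5 ng were 1 in place of 6, those higher at 10 pg than at 100 pg 3 in place of 12, and those lower 1 in place of 0. Shares of all genes beside such 2-fold counts are given under TMM scaling only. The medians of 100 pg to 5 ng became 5.13 for replication-dependent genes and 3.95 for variants. The log2 ratios of AT4G40030 (1.18), AT4G40040 (0.14), AT5G10980 (0.92) and AT1G07660 (1.12), at least 2-fold lower at 100 pg under TMM scaling, reversed, which DESeq2's size factors and a pseudocount of 0.1 did not bring about. Those of HTA9 (2.12) and HIS1-3 (0.61), under 2-fold with TMM scaling, also changed sign.

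With the mean of 100, 75 and 50 pg in place of 100 pg, 3 were lower than at 5 ng, 3 were higher at 10 pg and 1 was higher at 25 pg, and the replication-dependent median was 3.38. In alternatives chosen after seeing the data, 75 pg in place of 100 pg gave 3 lower and a median of 3.48, and 10 pg gave 2 lower and 3.53. Shares of all genes with these other references are not given here, so these counts describe the histone genes only. Counting H2A.X and H2A.W as replication-dependent reversed the median of variants to -0.0702.

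The share of H3.1 per kb of gene model was 1.12% at 5 ng and 63.4, 56.3, 56.0, 54.1 and 50.4% from 100 to 10 pg. Without AT3G27360, also chosen afterwards, it was 0.522, 56.2, 48.6, 49.1, 46.5 and 44.1%. The replication-dependent share was 37.9, 75.3, 74.6, 75.2, 73.3 and 71.7% per kb, and 37.7, 82.1, 80.9, 81.2, 79.7 and 77.8% with H2A.X and H2A.W included. From single reads it was 72.0, 71.1, 71.6, 69.6 and 68.0% from 100 to 10 pg.

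With all 6 libraries, slopes called 1044 of 20087 genes, 596 positive and 448 negative. Of these, 19 were histone genes, HTA1 with a positive slope (0.313) and the others with negative ones. This fit includes the 5 ng library of another sequencing date, so it cannot tell the RNA amount from the date. Over the 5 smaller amounts, DESeq2 called 2228 of 19059 genes, 6 of them histone genes (AT4G40040, HTA13, HTA12, HTA9, HTA11 and HIS1-3). Leaving out each smaller amount in turn gave 0 to 44 genes, the 44 without 25 pg, and 0 histone genes in the fit without 25 pg. Counts down to 5 pairs (AT3G53650) and 0 pairs (HTR12) limit the precision of ratios to the 5 ng library.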
